A study of Mus musculus with 12 samples.

Results

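Tfrc encodes the transferrin receptor, and its RNA was followed in RAW264.7 cells, a mouse macrophage line, under a bacterial stimulus, under a compound that acts on adiponectin receptors, and under both. The gene was taken as the probe CUST_8_PI419532418, whose RefSeq accession in the array files belongs to Tfrc (gene ID 22042) in RefSeq genes of the mouse assembly GRCm38.p6. It is 1 of 60694 probes left on the arrays after the outlier flags of the scanner software, 1 of the 33692 tested, and 1 of 15 that the files pair with a gene. The 12 samples, 3 in each of 4 groups, were hybridised to 1-colour arrays. The DMSO group had the vehicle for 24 h and the AdipoAI group the compound for 24 h. The LPS group was exposed to lipopolysaccharide, a bacterial cell wall component, for 6 h. In the AdipoAI+LPS group, 24 h of compound came first and LPS at 100 ng/ml followed during 6 h. No time before LPS is given for the LPS cells and no dose for AdipoAI. Nothing in the labels says that the arrays of a group came from separate cultures, so each p measures the spread between arrays, which may be technical. None of 10 marker genes for macrophages and other cell types was paired with a probe, so the labelled cell type could not be checked here.

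The transferrin receptor is the main route by which cells take up iron from the circulation. It binds iron-loaded transferrin at the cell surface, the complex is taken in by clathrin-mediated endocytosis, iron is released in the acidic endosome, and the receptor returns to the surface. When iron is scarce, iron regulatory proteins bind hairpins in the 3′ untranslated region of the Tfrc mRNA and protect it from decay. Macrophages also obtain iron by engulfing old red cells, and withholding iron from bacteria is one of their known responses to LPS. Of 29 genes listed for iron uptake, storage, export, use and regulation, such as the ferritin chain Fth1, the iron exporter Slc40a1 and the regulatory protein Ireb2, 1 was paired with a probe, and that was Tfrc. The other 28 were not analysed here, and the files do not give the position of the probe in the transcript.

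Tfrc lies on chromosome 16 of GRCm38.p6, from 32608896 to 32632794. RefSeq places starts of its transcripts at 32608896 and 32609122, which are 226 bases apart. The promoter window of the second start is shown because it also spans the first, so that the region where Tfrc transcription begins can be read in 1 piece. It covers chr16:32608872-32609171 on the plus strand, 250 bases before the start and 50 from it on, and 70.0% of its bases are G or C. Capitals mark the letters ACGTG, the core of hypoxia response elements, and TGACG, which is part of cyclic AMP response elements.
Tfrc promoter: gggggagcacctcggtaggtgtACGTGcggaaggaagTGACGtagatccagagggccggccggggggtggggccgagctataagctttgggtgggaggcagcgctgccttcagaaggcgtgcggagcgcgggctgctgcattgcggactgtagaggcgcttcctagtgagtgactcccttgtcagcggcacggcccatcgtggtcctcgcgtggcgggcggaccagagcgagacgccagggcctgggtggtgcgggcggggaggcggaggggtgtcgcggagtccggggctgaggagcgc
ACGTG was matched at 1 place in this window and TGACG at 1 place, without overlap, when both strands were searched. Counted from the second start, ACGTG begins at -228 and TGACG at -213, and counted from the first start they begin at -2 and 13. GGGCGG, the GC box, was matched at 2 places, at -35 and 3 from the second start, and 35.7% of all windows hold it. TATAAA, the TATA box, and CACGTG, an E box, had no match in these letters, against 13.6% and 7.15% of all windows with one. Of the 32851 promoter windows of this length in the table, 19.6% hold ACGTG and 20.8% hold TGACG on either strand, so that neither is rare. Such a match is a run of letters and not a measured binding site, and the arrays give no reading of the promoter itself.

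The array carries the Tfrc probe at 20 places, and each array therefore measured Tfrc with 20 spots. All 240 spots of the 12 arrays were well above background and none was saturated. The mean intensity, on the linear scale of the scanner and before normalization, was 36693, 27053 and 26510 on the DMSO arrays and 39687, 44691 and 46632 on the LPS arrays. It was 42754, 48799 and 48999 on the AdipoAI arrays and 48904, 37305 and 41700 on the AdipoAI+LPS arrays. The DMSO arrays were the 3 lowest even before normalization, and the highest of them, replicate 1, was close to AdipoAI+LPS replicate 2. Array data of whole cultures give RNA relative to all RNA measured, so that a change in the share of cells with Tfrc and a change in RNA per cell cannot be told apart. The means were 3.41% to 6.30% of the value at which the scanner saturates, so that Tfrc was far from the ceiling on every array. Within an array the spots varied with a coefficient of variation of 1.67% to 5.18%. The scanner software called 11 of the 240 spots outliers, and these were left out.

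**Figure D1:**
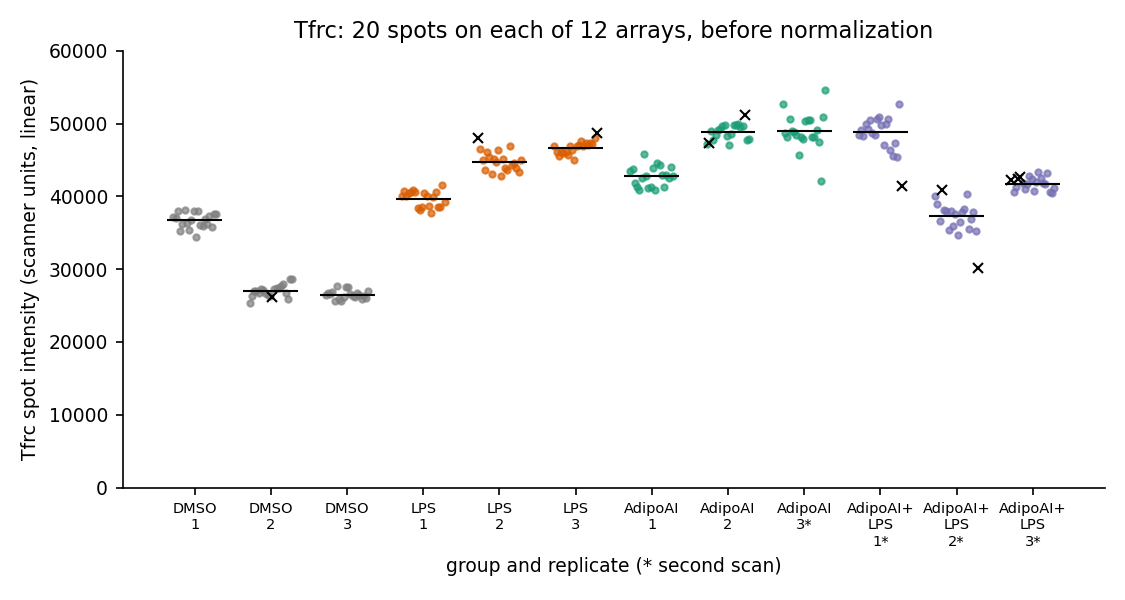
Intensity of each of the 20 Tfrc spots (vertical axis, linear scanner units) on each of the 12 arrays (horizontal axis, group and replicate), with the mean of the spots kept as a line and outlier spots as crosses. DMSO replicates 2 and 3 lie near 27053 and 26510, below every other array, and the spots of DMSO replicate 1, with a mean of 36693, overlap with those of AdipoAI+LPS replicate 2, with a mean of 37305.

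On the log2 scale the pooled SD of the spots of an array was 0.046, and the SD between arrays of a group was 0.12 after quantile normalization, which gives all arrays the same distribution of values. A spot mean had a median standard error of 0.0092 on an array. The 3 arrays per group, and not the spots, therefore set the precision of a Tfrc level. The arrays were scanned in 2 runs. AdipoAI replicate 3 and all AdipoAI+LPS arrays belong to the later scan, and the other 8 arrays to the earlier one. The number of probes detected well above background ranged over the arrays from 29298 to 32969.

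Tfrc was lowest in DMSO, higher in LPS, and highest in AdipoAI and AdipoAI+LPS, which were nearly level. The normalized log2 intensity was 14.96, 14.63 and 14.73 on the DMSO arrays, with a mean of 14.77 ± 0.17 (SD, n = 3). It was 15.28, 15.28 and 15.42 on the LPS arrays, with a mean of 15.33 ± 0.08 (SD, n = 3). The highest DMSO array, replicate 1, lay below the lowest LPS array. On the AdipoAI arrays the values were 15.42, 15.60 and 15.52, with a mean of 15.51 ± 0.09 (SD, n = 3), and on the AdipoAI+LPS arrays 15.55, 15.40 and 15.61, with a mean of 15.52 ± 0.11 (SD, n = 3). The DMSO arrays overlapped with no other group. LPS replicate 3 and AdipoAI replicate 1 held the same normalized value, and the AdipoAI and AdipoAI+LPS arrays were intermixed. In the order of the means, DMSO and LPS were the only neighbours that differed by the test given below.

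**Figure D2:**
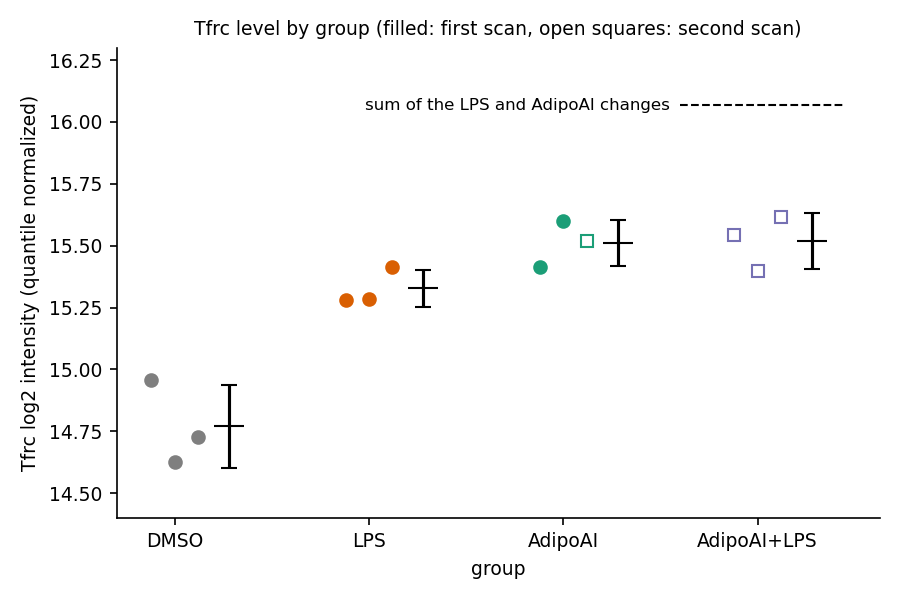
Quantile-normalized log2 intensity of Tfrc (vertical axis) on the 3 arrays of each group (horizontal axis), filled circles for the first scan and open squares for the second, with mean and SD as bars. The dashed line at 16.07 marks the level AdipoAI+LPS would have if the log2 changes of LPS and AdipoAI added up, and all 3 AdipoAI+LPS arrays lie below it, at 15.40 to 15.61.

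To learn how LPS acted on Tfrc in cells without AdipoAI, DMSO was compared with LPS. The labels do not say whether the LPS cells had the vehicle first, so that an effect of LPS and one of vehicle or culture time cannot be told apart here or in the interaction. Tfrc rose by 0.56 on the log2 scale (standard error 0.12, adjusted p = 0.0032 by limma), which is a 1.47-fold increase with a 95% confidence interval from 1.23 to 1.76. One fit held the 4 groups, p was adjusted by Benjamini-Hochberg across its 33692 probes, and a probe was called at an adjusted p under 0.05. Much of what the arrays measure differed between the DMSO and LPS groups. In this comparison 38.5% of all probes were called, 16.2% higher and 22.3% lower, and 5886 probes (17.5%) had a change at least as high as that of Tfrc. The rise of Tfrc was thus beyond the spread between arrays and of a common size among the changes in this comparison. It did not reach the log2 fold change of 1.5 that the methods set together with an unadjusted p under 0.05, which 9.79% of the probes passed.

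The effect of AdipoAI alone was read from DMSO vs. AdipoAI. Tfrc rose by 0.74 (standard error 0.12, adjusted p = 0.0024 by limma), a 1.67-fold increase with a 95% confidence interval from 1.39 to 2.00. All 3 AdipoAI arrays lay above all 3 DMSO arrays. Fewer probes were called here than in DMSO vs. LPS, with 14.5% in either direction, 6.92% higher and 7.53% lower. A rise at least as high as that of Tfrc was seen in 2243 probes (6.66%). The threshold of the methods was again not reached, and 1.82% of the probes passed it. With the first scan alone, which leaves 2 AdipoAI arrays, the change was 0.74 (adjusted p = 0.018 by limma), and AdipoAI replicate 3 of the second scan lay between the others.

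When AdipoAI was given to cells that also had LPS, the change of Tfrc was small. LPS vs. AdipoAI+LPS gave 0.19 (standard error 0.12, adjusted p = 0.29 by limma), a 1.14-fold difference with a 95% confidence interval from 0.95 to 1.37, and it was not called. In this comparison 17.1% of all probes were called. The interval does not exclude a change of either sign. No scan holds both groups, and with the scan as a term of the fit the change was 0.18 (standard error 0.22) and the probes called were 1041 in place of 5761. The scan term rests on AdipoAI replicate 3 as the array that parts scan from treatment.

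Tfrc was likewise nearly level between cells with AdipoAI alone and cells with AdipoAI followed by LPS. The labels give the AdipoAI cells 24 h of compound and no further time, while 6 h of LPS followed in the others. An effect of LPS and one of culture time therefore cannot be told apart here. AdipoAI vs. AdipoAI+LPS gave 0.0077 (standard error 0.12, adjusted p = 0.97 by limma), or 1.01-fold with a 95% confidence interval from 0.84 to 1.20. In this comparison 32.3% of all probes were called and 13.3% were called higher. Of the AdipoAI arrays, 2 lie in the other scan, and with the scan as a term 6779 probes were called in place of 10898. Within the second scan alone, where AdipoAI replicate 3 stands against the 3 AdipoAI+LPS arrays, the change was 0.00013 (standard error 0.20), with the lone AdipoAI array taken to vary like the other group. The sign of this difference turned in 6 of 31 other settings.

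Against the DMSO cells, Tfrc was about as much higher with the combination as with AdipoAI alone. The labels give the DMSO cells 24 h of vehicle and no further time. An effect of both treatments and one of culture time therefore cannot be told apart here. DMSO vs. AdipoAI+LPS gave 0.75 (standard error 0.12, adjusted p = 0.00039 by limma), a 1.68-fold increase with a 95% confidence interval from 1.40 to 2.01. In this comparison 47% of all probes were called and 20.7% were called higher, and 11.9% passed the threshold of the methods, which Tfrc did not. No scan holds both of these groups, and with the scan as a term 7623 probes were called in place of 15842, while Tfrc changed by 0.74 (standard error 0.22, adjusted p = 0.039 by limma). The LPS and AdipoAI groups themselves, compared only to order the levels and after their values were seen, differed by 0.18 (standard error 0.12, adjusted p = 0.25 by limma), against 36.7% of all probes called. These comparisons share groups, so that a deviation of the DMSO arrays would enter all those with DMSO.

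Whether the changes of LPS and AdipoAI add was asked with the interaction of the 4 groups. The rise with LPS and the rise with AdipoAI sum to 1.30 on the log2 scale, while AdipoAI+LPS lay 0.75 above DMSO, or 57.7% of the sum. The sum would have put AdipoAI+LPS at 16.07, and it was at 15.52. The interaction was -0.55 (standard error 0.17) with a 95% confidence interval from -0.92 to -0.18 and an unadjusted p of 0.0076 by limma, and its adjusted p over all probes was 0.13, so that Tfrc was not among the 3.08% of probes called for an interaction. It was called with normexp background correction, at -0.56 (adjusted p = 0.034 by limma), and with trend and robust variances in eBayes, at -0.55 (adjusted p = 0.037 by limma). Relative to Actb the interaction was -0.20 (adjusted p = 0.73 by limma). Relative to Gapdh it was -0.50 (unadjusted p = 0.052 and adjusted p = 0.43 by limma). On the linear scale, the mean normalized intensity was 28073 ± 3341 in DMSO, 41142 ± 2210 in LPS, 46755 ± 2973 with AdipoAI and 47036 ± 3596 with both treatments (mean ± SD, n = 3 each). The LPS group lay 13070 units and the AdipoAI group 18682 units above the DMSO level. The AdipoAI+LPS group lay 18963 units above it, or 59.7% of the sum of 31752. The observed level minus the added level was -12789 units, with a standard error of 3551 from the spread within the groups and no test. With the scan as a term the interaction was -0.56 (standard error 0.21, adjusted p = 0.29 by limma). All AdipoAI+LPS arrays lie in the second scan, and the part of the scan in this value was not tested beyond that fit.

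**Figure D3:**
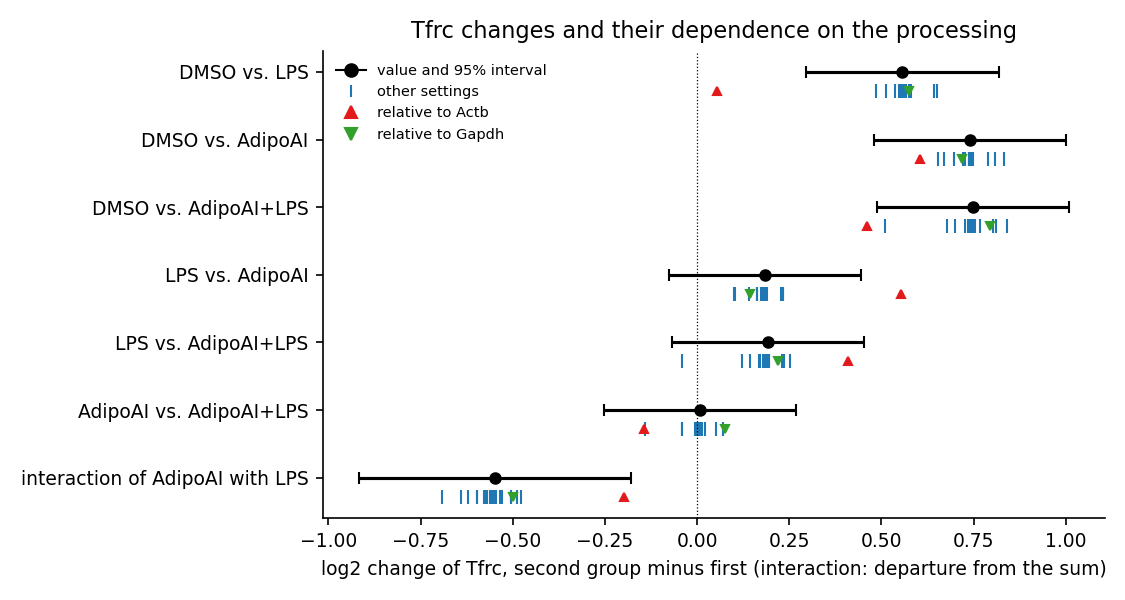
Log2 change of Tfrc in each comparison (horizontal axis; second group minus first, and for the interaction the departure from the sum) with its 95% confidence interval in black, and under other settings as ticks below it. The 3 comparisons with DMSO lie at 0.56, 0.74 and 0.75 with intervals above 0, and relative to Actb (triangles pointing up) the change in DMSO vs. LPS is 0.053.

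Tfrc is one of a panel of 15 gene-named probes with 20 spots each, most of them for genes often used as references, and 14 of them passed the filter. In DMSO vs. LPS, 3 of the other 13 were called higher and 4 lower, against 16.2% and 22.3% of all probes tested. The changes of the 13 ran from -0.91 to 1.52, so that Tfrc at 0.56 lay inside their range. In DMSO vs. AdipoAI, 1 of the other 13 was called higher and 2 lower, against 6.92% and 7.53% of all probes tested. The changes of the 13 ran from -0.56 to 0.39. Tfrc at 0.74 lay above this range. The highest of the others was Gusb, a lysosomal enzyme, at 0.39, and it was named after its values were seen. Relative to the mean of the 13 others on the same array, Tfrc rose by 0.57 with LPS (adjusted p = 0.0036 by limma) and by 0.81 with AdipoAI (adjusted p = 0.0019 by limma), and its interaction was -0.58 (adjusted p = 0.14 by limma).

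**Figure D4:**
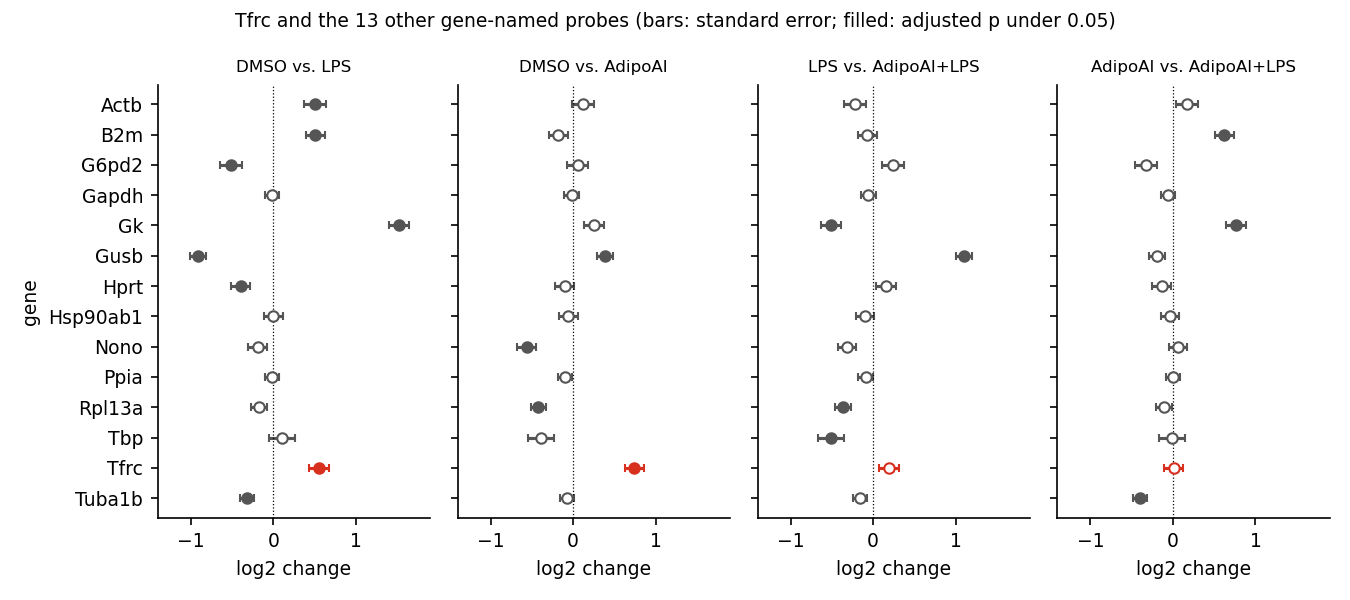
Log2 change (horizontal axes) of Tfrc (red) and of the 13 other gene-named probes (grey) in 4 comparisons, with the standard error as bars and filled symbols for an adjusted p under 0.05. Tfrc is the highest in DMSO vs. AdipoAI, at 0.74, while Gk is the highest in DMSO vs. LPS, at 1.52.

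The choice of a reference gene mattered. Actb, which encodes the cytoskeletal protein beta-actin, and Gapdh, an enzyme of glycolysis, are named in the methods as controls for qRT-PCR. Actb itself rose by 0.51 with LPS (adjusted p = 0.012 by limma), whereas the change of Gapdh was -0.02 (adjusted p = 0.90 by limma). As a difference to Actb on the same array, Tfrc stood at -0.47 ± 0.33 in DMSO, -0.42 ± 0.15 in LPS, 0.13 ± 0.07 with AdipoAI and -0.01 ± 0.18 with both treatments (mean ± SD, n = 3 each). Relative to Actb the change in DMSO vs. LPS was 0.053 (standard error 0.22, adjusted p = 0.86 by limma) and that in DMSO vs. AdipoAI 0.61 (adjusted p = 0.15 by limma), and neither was called. Under this scaling the median of all probes was itself at -0.56 in DMSO vs. LPS and at -0.15 in DMSO vs. AdipoAI. The distance of Tfrc from that median, 0.61 and 0.76, is the same by construction under any scaling that shifts whole arrays, and is no check of the Actb scaling. As a difference to Gapdh, Tfrc rose by 0.58 with LPS (adjusted p = 0.017 by limma) and by 0.72 with AdipoAI (adjusted p = 0.019 by limma).

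Likeness to Tfrc over the 12 arrays was measured by Pearson's r, as a description with no test. The 3 gene-named probes with the highest Pearson r were Gk, a glycerol kinase, at 0.454, Actb at 0.377 and B2m, the light chain of MHC class I, at 0.202. This ranking depends on the measure, as by Spearman's rho Gusb was highest, at 0.585, against 0.308 for Gk and 0.186 for Actb. B2m rose by 0.51 with LPS (adjusted p = 0.0044 by limma), as Actb did. Gk rose by 1.52 with LPS (adjusted p = 3.02e-06 by limma) and had a change of 0.25 with AdipoAI alone (adjusted p = 0.21 by limma), which sets it apart from the order of the groups in Tfrc. The lowest r was that of Rpl13a, a protein of the large ribosomal subunit, at -0.829. Another gene-named probe was close, at -0.825, and by Spearman's rho it was lower, at -0.841 against -0.788 for Rpl13a. The log2 intensity of Rpl13a was 14.92 ± 0.02 in DMSO, 14.75 ± 0.09 in LPS, 14.50 ± 0.06 with AdipoAI and 14.39 ± 0.07 with both treatments (mean ± SD, n = 3 each). The order of these means is opposite to that in Tfrc, but no step between neighbours was called. The steps were -0.17 in DMSO vs. LPS (adjusted p = 0.19 by limma), -0.25 in LPS vs. AdipoAI (adjusted p = 0.061 by limma) and -0.11 in AdipoAI vs. AdipoAI+LPS (adjusted p = 0.42 by limma).

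Among all other 33691 probes, 65 had an r over 0.9 with Tfrc (0.193%) and 26 an r under -0.9, and 1 passed 0.97, a limit that the methods set for co-expression of mRNAs with lncRNAs. That probe, ASMM10P037156, had an r of 0.973 and log2 intensities of 12.50 ± 0.15 in DMSO, 13.02 ± 0.06 in LPS, 13.33 ± 0.04 with AdipoAI and 13.29 ± 0.05 with both treatments (mean ± SD, n = 3 each). After the group means were taken out, its r with Tfrc was 0.751. ASMM10P046909 followed at 0.967, and was well above background on 7 of the 12 arrays. The lowest r was -0.943, for ASMM10P016954, which fell from 7.18 ± 0.15 (SD, n = 3) in DMSO to 5.48 ± 0.25 (SD, n = 3) in AdipoAI. The arrays lie in 4 groups and share their normalization, so these values describe likeness only, and the files do not pair these identifiers with genes.

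The deposited series table holds log2 values that the authors processed from the same arrays. There Tfrc differed from the values above by -0.01 to 0.01 on each array. The changes were 0.57 in DMSO vs. LPS (adjusted p = 0.0031 by limma), 0.74 in DMSO vs. AdipoAI (adjusted p = 0.0024 by limma) and 0.18 in LPS vs. AdipoAI+LPS (adjusted p = 0.33 by limma).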

How the data were processed

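Tfrc was measured on 12 arrays of RNA from RAW264.7 cells in 4 groups, taken from the sample labels. Scanner output deposited by the authors gives the linear intensity of every spot after background subtraction by Agilent Feature Extraction 11.0.1.1 (submitters' processing notes), without normalization between arrays. A deposited series table holds the authors' log2 values, which the methods describe as quantile normalized. Control spots, negative probes and outlier spots were left out, the log2 values of the spots of a probe were averaged, and 60694 probes were quantile normalized. Detection above background on 3 or more arrays left 33692 probes, which were fitted with limma, all 4 groups together, and p was adjusted by Benjamini-Hochberg over all of them. The fit was also run on simulated data with an LPS effect alone, and its outcome is not given here. That simulation held no interaction and no scan effect, so it does not bear on either.

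The gene, the lists and the tests were chosen with earlier results of these data known. The rule for naming was Tfrc, the 3 gene-named probes of highest r with it and the 1 of lowest r, at most 4 probe identifiers, and genes of the iron list. Actb and Gapdh as references, the comparison of LPS with AdipoAI and the kept outlier spots were added after the data were seen. Depth is given by the 29298 to 32969 probes per array well above background, and precision by 3 arrays per group. Alternatives covered the normalization, background correction, filter, arrays, variance model, replicate number, scan, left-out arrays and spots. Software was limma 3.58.1 in R 4.3.3, with figures by matplotlib 3.10.9 under Python 3.11.15. Promoter sequences came from RefSeq (GRCm38.p6).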

Additional observations from a re-analysis of the deposited data

How the results depend on the processing

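The 3 calls of Tfrc against DMSO (LPS, AdipoAI and both treatments) held in every alternative run except the scaling to Actb, where the changes were 0.053, 0.61 and 0.46, each no longer called. With each array left out in turn they lay between 0.48 and 0.65, between 0.67 and 0.83, and between 0.68 and 0.84. LPS vs. AdipoAI+LPS was called in none, with 0.14 to 0.25 over the left-out arrays, but was -0.041 without normalization between arrays, where the median of all probes was at -0.18. AdipoAI vs. AdipoAI+LPS was called in none and lay between -0.040 and 0.069 over the left-out arrays. It was below 0 without normalization (-0.14), relative to Actb (-0.14) and relative to the other named probes (-0.0037). In these settings the median of all probes was itself at -0.165, -0.167 and -0.027, in the same order. LPS vs. AdipoAI was called in none, with 0.14 to 0.23 over the left-out arrays.

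The interaction was called with normexp background correction, at -0.56 (adjusted p = 0.034 by limma), and with eBayes trend and robust variances, at -0.55 (adjusted p = 0.037 by limma). With each array left out in turn it lay between -0.64 and -0.48. Over these and the other settings apart from the reference genes the adjusted p ran from 0.034 to 0.31. Relative to Actb the adjusted p was 0.73 by limma at -0.20, and relative to Gapdh it was 0.43 by limma at -0.50. The cause was not tested. Over all probes, normexp gave 1651 interaction calls against 1039. The scan as a term gave 1041 calls against 5761 in LPS vs. AdipoAI+LPS, 6779 against 10898 in AdipoAI vs. AdipoAI+LPS and 7623 against 15842 in DMSO vs. AdipoAI+LPS. The count of probes with a likeness to Tfrc over 0.97 was 0 with Spearman's rho and 0 with the 75th percentile. With the group means taken out it was 1, and that probe was not ASMM10P037156, whose r was then 0.751.

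Whether arrays with the same replicate number belong together could not be told. Deviations of same-numbered arrays correlated between -0.19 and 0.11, and those of differently numbered arrays were not set beside them. With the replicate number as a block, the change was 0.56 with LPS alone, 0.74 with AdipoAI alone and 0.19 in LPS vs. AdipoAI+LPS, and the interaction was -0.55, and no call of Tfrc changed.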

Other observations

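The deviations of the Tfrc spots from the mean of their array were little alike between most arrays. They had a median r of 0.058 over the 66 pairs of arrays, with a range from -0.68 to 0.71. Outlier spots were left out of these values and of the averages that follow. The place in row 313 and column 127 was lowest on average, at -0.025 in the first scan and -0.085 in the second. The highest on average, row 379 and column 53, had 0.016 and 0.068. The place in row 379 and column 53 was called an outlier on 3 arrays, more often than any other. AdipoAI+LPS replicate 2 held an intensity of 30216 there, against a mean of 37305 over the spots kept. AdipoAI+LPS replicate 1 held 41357 there, against a mean of 48904. These low values of the second scan do not enter the 0.068, so that its rank as highest depends on leaving them out. With the outlier spots kept, the changes of Tfrc against DMSO were 0.56 with LPS and 0.74 with AdipoAI, and LPS vs. AdipoAI+LPS gave 0.19.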
